A study of Rattus norvegicus with 12 samples.

Results

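The genes described here are the immediate early transcription factors of the AP-1 and EGR families: Fos, Fosb, Fosl1, Fosl2, Jun, Junb, Jund, Egr1, Egr2 and Egr3. They were taken as every probe whose gene name in the 12 scanner files is one of these symbols, which gave 17 of 45598 rat probes. Of these, 16 passed the filter on dim probes, and all 10 genes had at least 1 probe among the 16382 genes tested. One Egr3 probe did not pass, and the other passed only through the laser arrays.

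Expression was measured in calvarial bone, the flat bone of the skull roof, of rats aged 10 weeks, 24 h after the operation, on 1-colour Agilent arrays, 4 for each of 3 groups. In the laser group a rectangle of 8 by 3 mm was ablated with 3 strokes of an Er:YAG laser, which heats the water in tissue, at 20 Hz and an output of 127 mJ per pulse. In the bur group a defect of that size was drilled with a rotating bur. The control rats were operated on as well: their periosteum, the membrane over the bone, was stripped and the bone was left uncut, although the design text calls them non-treated. The labels give no strain or sex, and they leave unsaid if each array had its own animal; p-values therefore rest on a spread that may be technical. All laser arrays lay on one slide and all bur and control arrays on another, so that slide and treatment cannot be told apart in either laser comparison. Bur and control arrays filled separate columns of their slide, so column and treatment cannot be told apart between them. From 67.5 to 72.0% of spots were well above background on laser arrays, 57.0 to 59.9% on bur arrays and 57.2 to 64.4% on control arrays. All 8 osteoblast and osteocyte markers checked passed the filter on dim probes. Phex and Sp7 of that list are named after their values were seen. Phex was well above background on 4 laser, 3 bur and 1 control arrays, and Sp7 on 4, 4 and 2. Neural and glial markers summed to 244 to 415 units of normalized signal on laser arrays, 148 to 1120 on bur arrays and 493 to 11300 on control arrays.

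AP-1 is a dimer in which a JUN protein pairs with a FOS protein or with another JUN, and it binds DNA at the sequence TGANTCA and at the related cyclic AMP response element, TGACGTCA. EGR proteins are zinc finger factors that bind GC-rich sites. Both families are switched on within minutes by growth factors, cytokines, stress and mechanical load, through MAP kinases and serum response factor, which binds the CArG box, and their transcripts usually decay quickly. In bone, FOS is required for osteoclast formation, and FOSL1, FOSL2 and JUNB take part in osteoblast function in mice.

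The array reads each gene through 60-base probes. The letters of 5 are shown because the results turn on how far probes of 1 gene agree, and because Junb was read by this probe alone. The 17 probe names hold 16 distinct sequences: 2 of the Fosl2 names carry the same letters, which makes them a technical repeat. Positions in the transcript are those given by the scanner files, and the chromosome positions are theirs too, in the rn4 build. No annotation of rn4 was used, so coding and untranslated parts are not told apart.
Jun (A_64_P053353, from base 1790 of its transcript, chr5:115359410-115359469, minus strand): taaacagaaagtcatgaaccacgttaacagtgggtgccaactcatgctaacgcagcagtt
Junb (A_43_P12125, from base 1245, chr19:24832781-24832840, plus strand): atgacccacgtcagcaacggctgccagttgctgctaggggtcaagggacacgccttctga
Jund (A_43_P15517, from base 981, chr16:19240333-19240392, minus strand): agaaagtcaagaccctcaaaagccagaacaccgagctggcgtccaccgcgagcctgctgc
Fosl2 (A_44_P1152997, from base 535, no position given): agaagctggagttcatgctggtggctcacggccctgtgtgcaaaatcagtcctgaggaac
Fosl2 (A_44_P1082224 and A_64_P065063, from base 731, no position given): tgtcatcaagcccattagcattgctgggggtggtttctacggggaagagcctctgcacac

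Promoters of 7 of the 10 genes were in the RefSeq table of the GRCr8 build, not those of Fos, Jun and Egr3. The 250 bases before the start of 4 of them are shown: Fosl1 and Junb, which rose together in bur-drilled bone, and Egr1 and Egr2, whose probes disagreed. Capitals mark CArG boxes. Both strands were searched for CArG boxes, for the cyclic AMP response element TGACGTCA, for the AP-1 site TGANTCA and for the EGR site GCGNGGGCG.
Fosl1 (chr1:212183635-212183884, plus strand): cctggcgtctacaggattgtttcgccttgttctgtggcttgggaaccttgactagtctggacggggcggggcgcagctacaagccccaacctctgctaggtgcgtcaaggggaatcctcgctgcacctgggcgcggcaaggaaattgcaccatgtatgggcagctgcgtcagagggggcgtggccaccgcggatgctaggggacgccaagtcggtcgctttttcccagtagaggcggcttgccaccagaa
Junb (chr19:40080876-40081125, plus strand): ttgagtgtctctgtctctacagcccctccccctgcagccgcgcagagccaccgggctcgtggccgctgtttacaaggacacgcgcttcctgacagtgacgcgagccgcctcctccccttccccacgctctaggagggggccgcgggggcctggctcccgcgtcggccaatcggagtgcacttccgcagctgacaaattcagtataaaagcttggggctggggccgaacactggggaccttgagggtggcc
Egr1 (chr18:26736828-26737077, plus strand): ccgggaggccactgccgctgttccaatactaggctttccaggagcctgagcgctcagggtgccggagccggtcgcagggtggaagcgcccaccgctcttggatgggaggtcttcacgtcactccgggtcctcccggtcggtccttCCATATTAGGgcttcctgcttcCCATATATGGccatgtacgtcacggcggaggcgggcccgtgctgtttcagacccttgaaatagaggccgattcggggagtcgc
Egr2 (chr20:21054442-21054691, minus strand): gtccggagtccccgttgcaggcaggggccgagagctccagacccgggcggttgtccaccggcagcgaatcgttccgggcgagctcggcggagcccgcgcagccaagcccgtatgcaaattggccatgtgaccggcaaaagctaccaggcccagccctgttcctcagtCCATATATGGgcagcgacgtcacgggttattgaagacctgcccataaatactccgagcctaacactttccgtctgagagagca
Egr1 held 2 CArG boxes, beginning 105 and 83 bases before the start, and Egr2 held 1, beginning at 83 bases. Of 27457 promoters of this length 1.49% held a CArG box. None of the 4 motifs was found in the windows of Fosl1, Junb and Fosb. The Jund window held 1 cyclic AMP response element, 221 bases before the start, and 3 EGR sites, and that of Fosl2 held 1 EGR site. These letters occurred in 1.68% (cyclic AMP response element), 4.51% (EGR site) and 6.41% (AP-1 site) of all promoters. The motif counts describe the windows and bear on no factor's binding.

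Bur-drilled bone had higher Fos, Fosl1, Junb and Jun than control bone 24 h after surgery, by 4.83-fold, 3.87-fold, 2.78-fold and 1.99-fold. None of the 10 genes was called lower. In laser-ablated bone each of these 4 genes was called lower than in bur-drilled bone, and none was called different from control bone by the brightest probe. A gene was called at an adjusted p under 0.05 in limma's moderated test, with Benjamini-Hochberg adjustment over all 16382 genes. Each gene is given by its brightest kept probe unless another is named. In bur against control 4 of 10 genes were called higher and 0 lower, where 13.7% of all genes tested were called higher, 9.74% lower and 23.4% in either direction. In laser against control 0 were higher and 1, Jund, was lower, where 18.3% of all genes were called higher, 16.2% lower and 34.4% in all. At an unadjusted p under 0.05 the count there was 2. In laser against bur 0 were higher and 5 lower, where 11.6% of all genes were called higher, 14.2% lower and 25.8% in all. The median log2 fold change of the 10 genes was 0.71 for bur against control, -0.09 for laser against control and -0.83 for laser against bur, beside 0.08, 0.01 and -0.06 over all genes. These medians include Egr3, which no bur or control array read well above background. With only probes well above background on all 12 arrays, 8 of the 10 genes remained, without Egr3 and Fosb. Their medians were then 0.72, 0.11 and -0.83, beside 0.08, -0.06 and -0.13 over all genes. Scaling each array to its 75th percentile moved the median of all genes in bur against control to -0.10, and higher genes then made up 40.1% of calls, against 58.4%. The same 4 genes were called under that scaling, with log2 fold changes of 1.99 for Fos, 1.68 for Fosl1, 1.19 for Junb and 0.93 for Jun. Because the tissue was measured in bulk, fewer cells of a type and less RNA per cell cannot be told apart in any of these values. The comparisons share arrays, so their values are set side by side and not taken as independent.

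**Figure D1:**
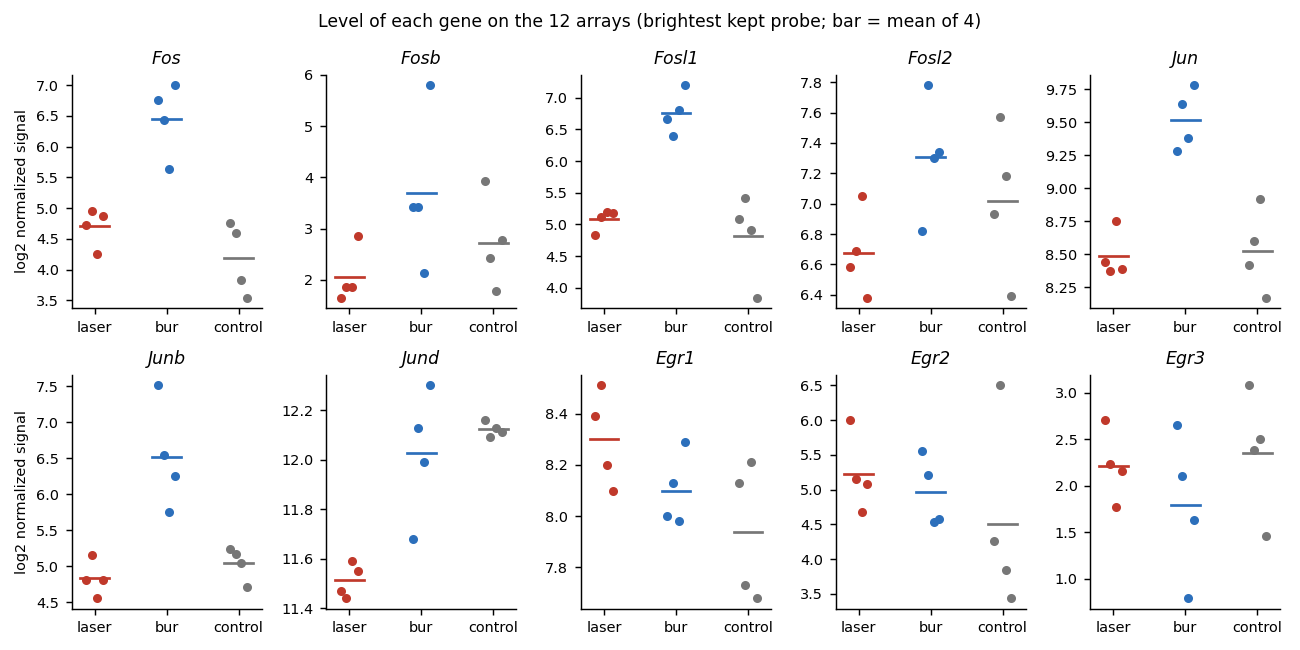
Level of the 10 genes on each array, as log2 quantile-normalized signal of the brightest kept probe, for laser, bur and control groups (points are arrays, bars are means of 4). The bur arrays of Fos, Fosl1, Jun and Junb lie above all laser and all control arrays, and the laser arrays of Jund lie below all others. Each panel has its own axis, since levels of different probes are not comparable.

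Fos is the founding FOS protein and cannot form a dimer without a JUN partner. It read 4.72, 4.96, 4.26 and 4.87 log2 on laser arrays, 6.76, 6.43, 5.63 and 7.0 on bur arrays and 4.75, 4.6, 3.83 and 3.54 on control arrays. All bur arrays lay above every laser and control array, while the laser and control arrays overlapped. For bur against control the log2 fold change was 2.27 ± 0.34 (SE, n = 4 per group; 95% interval of the fold 2.89 to 8.08; limma adjusted p = 0.00109). For laser against bur it was -1.75 ± 0.34, to 0.296 of the bur level (adjusted p = 0.00351). For laser against control it was 0.52 ± 0.34 (adjusted p = 0.259), and the interval of the fold, 0.857 to 2.39, spans 1. The size depends on background handling: with normexp correction the log2 fold change was 0.95 for bur against control and -0.80 for laser against bur, both still called.

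Fosl1 encodes FRA-1, a FOS protein without the strong activation domain of FOS, itself a known AP-1 target. Its level was 4.84, 5.11, 5.20 and 5.18 log2 on laser arrays, 6.66, 6.40, 6.81 and 7.20 on bur arrays and 5.09, 5.41, 4.91 and 3.84 on control arrays. Here too every bur array lay above every other array. The log2 fold change was 1.95 ± 0.30 for bur against control (adjusted p = 0.00121). Laser against bur gave -1.69 ± 0.30 (adjusted p = 0.00205). Laser against control gave 0.27 ± 0.30 (adjusted p = 0.516; fold interval 0.766 to 1.89). Normexp correction gave 0.91 for bur against control and -0.85 for laser against bur, both called.

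Fosl2 encodes FRA-2, and its probes did not give one answer. The brightest read 6.58, 6.69, 7.05 and 6.38 log2 on laser arrays, 6.82, 7.78, 7.30 and 7.34 on bur arrays and 6.93, 7.57, 7.18 and 6.39 on control arrays, with overlap between all groups. It was not called in any comparison (0.30 ± 0.27 for bur against control, adjusted p = 0.448, and -0.64 ± 0.27 against bur bone in laser bone, adjusted p = 0.101). Of the 2 probe names with identical letters, A_64_P065063 was called higher in bur than in control bone (1.03 ± 0.23, adjusted p = 0.00944 over all probes) and lower in laser than in bur bone (-1.0, adjusted p = 0.00817). A_44_P1082224 gave 0.91 ± 0.39 (adjusted p = 0.122) and -1.0 ± 0.39 (adjusted p = 0.0770) and was not called. These 2 spots of 1 sequence differed by at most 0.5 log2 on 10 of 12 arrays, and by 1.17 on bur array 4. Fosb, which is known for a long-lived truncated form in brain, was near background: it was well above it on 2 laser, 1 bur and 2 control arrays. Its level ran from 1.65 to 2.86 log2 on laser arrays, 2.14 to 5.80 on bur arrays and 1.78 to 3.93 on control arrays. It was not called in any comparison.

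Jun, the partner that most AP-1 dimers contain, was read by 2 kept probes. The brightest read 8.44, 8.37, 8.75 and 8.39 log2 on laser arrays, 9.28, 9.64, 9.38 and 9.78 on bur arrays and 8.42, 8.60, 8.92 and 8.17 on control arrays. Bur arrays lay above all others. Its log2 fold change was 0.99 ± 0.18 for bur against control (adjusted p = 0.00287). Laser against bur gave -1.03 ± 0.18 (adjusted p = 0.00187) and laser against control -0.04 ± 0.18 (adjusted p = 0.881; fold interval 0.740 to 1.28). The second probe, A_42_P741027, lies further along the transcript, from base 2436, and was spotted 10 times on each array. Its repeated spots had an SD of 0.03 to 0.17 log2 within an array. It read 8.22, 8.23, 8.01 and 8.17 log2 on laser arrays, 8.89, 8.91, 8.69 and 8.92 on bur arrays and 7.13, 7.58, 7.69 and 7.38 on control arrays, and the 3 groups did not overlap. By this probe laser-ablated bone was between the other groups: 0.71 ± 0.14 above control bone (1.64-fold, adjusted p = 0.00281 over all probes) and -0.69 ± 0.14 against bur-drilled bone (adjusted p = 0.00401). For bur against control it gave 1.41 ± 0.14 (2.65-fold, adjusted p = 0.000336). In the authors' deposited table the Jun entry carries this probe's name, with log2 fold changes of 0.60 for laser against control and 1.27 for bur against control.

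Junb opposes JUN at some promoters and is required in mice for bone formation. It read 4.81, 5.16, 4.56 and 4.81 log2 on laser arrays, 7.51, 6.54, 5.75 and 6.26 on bur arrays and 5.24, 5.17, 5.05 and 4.71 on control arrays. Every bur array again lay above all others. The spread among bur arrays (SD 0.74) was about that of Fos there (0.60). The log2 fold change was 1.47 ± 0.31 for bur against control (adjusted p = 0.00620). Laser against bur gave -1.68 ± 0.31 (adjusted p = 0.00273) and laser against control -0.20 ± 0.31 (adjusted p = 0.642; fold interval 0.541 to 1.39). Normexp correction gave 0.79 for bur against control and -0.83 for laser against bur, both called.

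Jund, the JUN protein that resting cells hold at a steady level, was the one gene called lower in laser than in control bone by its brightest probe. That probe read 11.47, 11.44, 11.59 and 11.55 log2 on laser arrays, 11.68, 12.13, 11.99 and 12.30 on bur arrays and 12.16, 12.09, 12.13 and 12.11 on control arrays. All laser arrays lay below all bur and control arrays. It fell to 0.655 of the control level in laser-ablated bone (log2 -0.61 ± 0.13, adjusted p = 0.00487) and to 0.700 of the bur level (-0.51 ± 0.13, adjusted p = 0.0154), and gave -0.10 ± 0.13 for bur against control (adjusted p = 0.635). The second Jund probe, whose letters are shown above, read 6.31, 6.21, 6.05 and 6.22 log2 on laser arrays, 6.72, 7.51, 6.60 and 7.51 on bur arrays and 6.42, 6.47, 5.87 and 5.93 on control arrays. By it Jund was higher in bur than in control bone (0.91 ± 0.24, adjusted p = 0.0195 over all probes), lower in laser than in bur bone (-0.88 ± 0.24, adjusted p = 0.0172) and not called for laser against control (0.03 ± 0.24, adjusted p = 0.939). Laser below bur is the only one of the 3 Jund comparisons in which both probes were called alike. The authors' deposited table has both entries, with -0.07 and 0.51 for bur against control.

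**Figure D2:**
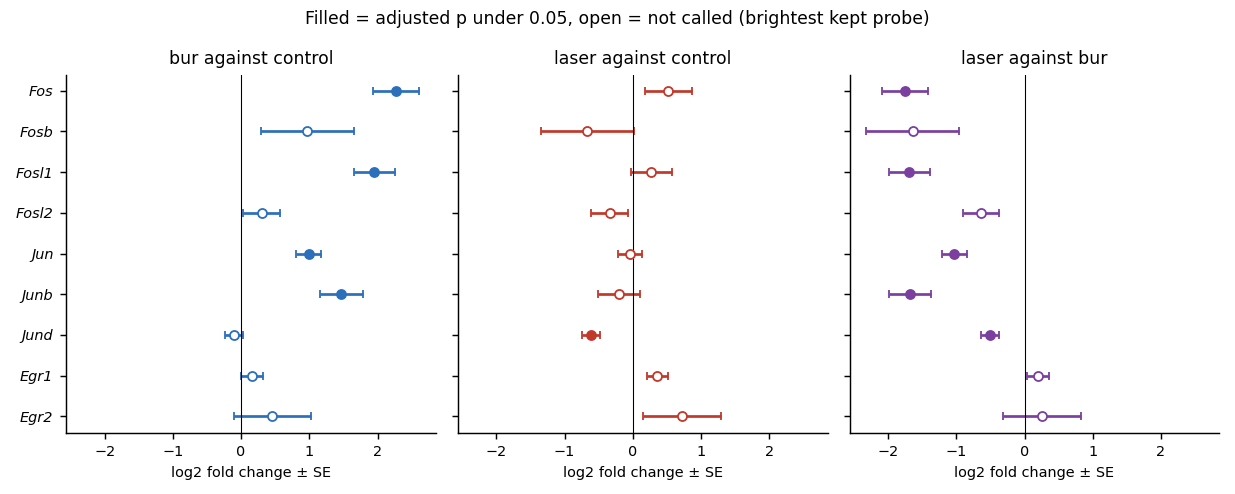
Log2 fold change of 9 of the genes (horizontal axis, points with bars of 1 SE) in the 3 comparisons, from the fit across all genes with 4 arrays per group. Filled points passed an adjusted p under 0.05: Fos, Fosl1, Jun and Junb in bur against control, Jund in laser against control, and these 5 genes in laser against bur. Egr3 is left out because bur and control arrays did not read it above background.

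Egr1, a zinc finger factor induced by serum, injury and load, was not called in any comparison by its brightest probe, which read 8.39, 8.51, 8.20 and 8.10 log2 on laser arrays, 8.00, 8.13, 7.98 and 8.29 on bur arrays and 8.13, 7.73, 8.21 and 7.68 on control arrays. All groups overlapped (0.36 ± 0.16 for laser against control, adjusted p = 0.0952; 0.16 ± 0.16 for bur against control, adjusted p = 0.490; laser against bur 0.20 ± 0.16, adjusted p = 0.387). With normexp correction the first was called, at 0.34. The second probe, A_64_P082693, read 5.14, 4.90, 5.10 and 4.99 log2 on laser arrays, 5.52, 5.90, 5.89 and 6.0 on bur arrays and 5.41, 5.02, 5.05 and 5.24 on control arrays. Its bur arrays lay above all others. It was called for bur against control (0.65 ± 0.14, 1.57-fold, adjusted p = 0.00969 over all probes) and for laser against bur (-0.79 ± 0.14, adjusted p = 0.00211). The probes begin at base 2857 and base 1467 of their transcripts, and the first was designed on an Ensembl transcript and the second on a RefSeq one.

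Egr2, known from Schwann cell myelination and from restraint of osteoclast formation in mice, showed the widest gap between probes of 1 gene. Probe A_42_P473594 read 5.42, 5.58, 3.76 and 5.06 log2 on laser arrays, 7.09, 6.93, 5.72 and 5.89 on bur arrays and 3.65, 3.30, 3.11 and 2.31 on control arrays, and the 3 groups did not overlap. It rose 9.96-fold in bur against control bone (3.32 ± 0.46, adjusted p = 0.000960 over all probes) and 3.64-fold in laser against control bone (1.86 ± 0.46, adjusted p = 0.00926), and was at 0.365 of the bur level in laser-ablated bone (-1.45 ± 0.46, adjusted p = 0.0353). Only 1 of 4 control arrays read it well above background. With dimmer arrays held at the background limit, the lowest signal well above background on that array, the folds over control were 9.79 and 3.58. Of the control arrays only control 4, at 2.31 with a limit of 2.41, lay below its limit. The folds could therefore hardly change, and they do not show how far the dim control arrays matter. The probe that was brightest on average, A_44_P1164501, read 6.0, 5.16, 4.68 and 5.08 log2 on laser arrays, 5.55, 5.21, 4.53 and 4.58 on bur arrays and 4.26, 6.50, 3.85 and 3.44 on control arrays. It overlapped between all groups and was not called (0.46 ± 0.57 for bur against control, adjusted p = 0.600; 0.72 ± 0.57 for laser against control, adjusted p = 0.358). One array, control 2, sets that result: without it the log2 fold change was 1.12 for bur against control (adjusted p = 0.0450) and 1.38 for laser against control (adjusted p = 0.0134), both called. The authors' deposited table holds 1 entry for Egr2, at 1.01 for bur against control, 0.56 for laser against control and -0.45 for laser against bur, each with their adjusted p below the same threshold.

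Egr3 was at the limit of detection. Its kept probe was well above background on 4 laser arrays and on 0 bur and 0 control arrays, with 1.77 to 2.71 log2 on laser arrays, 0.79 to 2.65 on bur arrays and 1.46 to 3.08 on control arrays. The background limit itself was lower on laser arrays (1.59 to 1.93 log2) than on bur (2.19 to 2.75) and control arrays (2.02 to 3.09), so no fold is given.

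**Figure D3:**
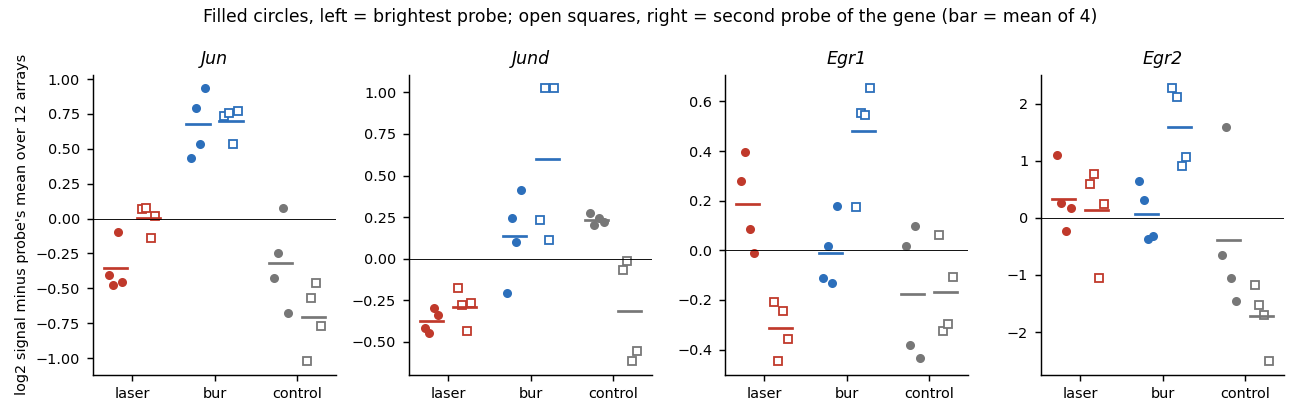
The 2 probes of Jun, Jund, Egr1 and Egr2 on each array, as log2 signal minus that probe's mean over 12 arrays (filled circles, brightest probe; open squares, second probe; bars are means of 4). For Egr2 the second probe separates the 3 groups, from 3.76 to 5.58 log2 on laser, 5.72 to 7.09 on bur and 2.31 to 3.65 on control arrays, while the brightest overlaps, with control 2 at 6.50.

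Counted by probe, 9 of the 16 kept probes were called higher in bur than in control bone and 0 lower, where 12.6% of all kept probes were called higher and 7.84% lower. Laser against control had 2 higher and 1 lower, where 18.9% of all probes were higher and 13.9% lower. Laser against bur had 0 higher and 10 lower, where 13.4% of all probes were higher and 13.9% lower. Probes of 1 gene share their target and are not independent. Of the 5 genes with several kept probes, 4 had probes that differed in call for bur against control, and 3 for each laser comparison. When the mean of its kept probes stood for a gene, 7 of the 10 genes were called higher for bur against control. Of all 16382 genes, 2280 were then called higher.

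The transcription factors whose DNA partners overlap with AP-1 (ATF, BATF, JDP and MAF families) numbered 13 among the genes tested. Of these, 6 were called higher in bur than in control bone and 0 lower. For laser against control the counts were 2 and 2, and for laser against bur 0 and 7. Of all genes tested, 13.7% were called higher and 9.74% lower for bur against control. For laser against control these shares were 18.3% and 16.2%, near the 2 and 2, and for laser against bur 11.6% and 14.2%. The counts of the later pathway and marker lists are to be read beside these shares. Maff, a small MAF protein without an activation domain, rose 3.5-fold in bur-drilled bone (log2 1.81 ± 0.19, adjusted p = 0.000269) and 1.71-fold in laser-ablated bone (adjusted p = 0.00819). The probes of Maf, a factor of macrophages and T cells among others, disagreed: its brightest gave 1.58 log2 for bur against control and -1.70 for laser against bur, and another gave 1.61 and -1.72, all called. The third gave -0.11 for bur against control, not called, and was called the other way for laser against bur (0.97, adjusted p = 0.00262). Batf3, a factor of dendritic cells, rose 2.98-fold in bur against control bone. The median over the list was 0.38, -0.02 and -0.69 log2 for bur against control, laser against control and laser against bur. Without control 1 and control 4, whose neural markers were high, 6 were still called higher for bur against control, but 0 in either direction for laser against control.

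Among 27 other immediate early genes, 14 were called higher in bur than in control bone and 0 lower, with a median log2 fold change of 0.86. The 14 include Nr4a3, named after its value was seen, which 1 bur and 0 control arrays read well above background. Its other probe gave 0.90 log2 and was not called (adjusted p = 0.436). Plk3, a stress-induced polo-like kinase, rose 5.02-fold (2.33 ± 0.22, adjusted p = 0.000251), Gadd45b, which signals to p38 and JNK kinases, rose 2.67-fold and Ier5 rose 2.22-fold. For laser against control 6 were higher and 2 lower, with Plk3 at 2.0-fold (adjusted p = 0.00501). Btg2, an antiproliferative gene, fell by 1.07 on the log2 scale. For Mcl1, which protects cells from apoptosis, the brightest probe gave -0.80 and was called, and the other gave 0.36 and was not (adjusted p = 0.220). For laser against bur 0 were higher and 12 lower, with a median of -0.80, among them Ier5 (-1.36 ± 0.19, adjusted p = 0.000437) and Klf10, induced by TGF-beta (-1.01 ± 0.17, adjusted p = 0.00135). The counts shrank without control 1 and control 4, to 8 higher for bur against control and 1 higher for laser against control. Under 75th percentile scaling 2 were higher for laser against control. Maff and Atf3 belong to this list and to the one before it. Dusp1 and Srf, named for their membership only, are also in the later lists of negative regulators and of upstream factors. Nab2 is in the negative regulators and the EGR targets, and Vegfa in both target lists, so their calls are counted in each.

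Negative regulators of these pathways (EGR co-repressors, dual-specificity phosphatases, SPRY and SPRED proteins) numbered 11. Of these, 7 were called higher in bur than in control bone and 0 lower, 3 and 0 for laser against control, and 0 and 5 for laser against bur. Among the 5 was Nab1 (-0.75 by its brightest probe), of which another probe was called higher (2.65, adjusted p = 0.00342). Others gave 0.89 and -0.79, not called. For laser against control these probes gave 2.77, 2.14 and 0.99, all called, where the brightest (-0.18) was not. A Spred1 probe was also called higher for laser against bur (1.60, adjusted p = 0.00485), where the brightest (0.13) and another (-0.36) were not called. Dusp6, a phosphatase that inactivates ERK, rose 2.32-fold in bur-drilled bone (1.21 ± 0.18, adjusted p = 0.00102) and was at 0.411 of the bur level in laser-ablated bone. Nab2, a co-repressor that EGR proteins induce and that then restrains them, rose 2.11-fold in bur-drilled and 1.39-fold in laser-ablated bone. Its second probe gave 1.39 log2 for bur against control, called, and -0.41 for laser against control, not called. Spry4, which dampens receptor tyrosine kinase signals, read 5.30 to 5.91 log2 on laser arrays, 4.26 to 4.66 on bur arrays and 1.28 to 4.03 on control arrays. It was called higher in laser-ablated than in control bone (adjusted p = 0.000692). Only 2 of 4 control arrays read it well above background, and with the dimmer arrays held at the background limit the fold was 5.67. Laser against bur gave 1.24 ± 0.46 and was not called (adjusted p = 0.0698). Without control 1 and control 4 the count for bur against control was 3.

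Of 18 kinases and ternary complex factors upstream of the family, 3 were called higher and 1 lower in bur than in control bone. The median was 0.12 log2. Of all genes tested 13.7% were called higher and 9.74% lower in that comparison, so the 3 higher lie near the share of all genes. Elk3, a partner of serum response factor, rose 1.85-fold (adjusted p = 0.00261) and was at 0.526 of the bur level in laser-ablated bone. Mapk3, for the kinase ERK1, rose 2.74-fold in laser-ablated bone against control (1.46 ± 0.14, adjusted p = 3.34e-05), with 14.33 to 14.74 log2 on laser arrays and 12.95 to 13.36 on control arrays. Of the 18 genes, 1 was higher and 4 were lower for laser against control, and 1 was higher and 6 were lower for laser against bur.

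Known AP-1 target genes were called higher than in control bone after both treatments. Of 17 tested, 12 were called higher in bur than in control bone and 9 higher in laser than in control bone, with 0 lower in both and medians of 1.16 and 0.99 log2. For laser against bur 1 was higher and 4 were lower, with a median of -0.11. Ccnd1, for cyclin D1, rose 3.15-fold in laser-ablated bone and 2.23-fold in bur-drilled bone against control. Ptgs2, the inducible prostaglandin synthase, rose 2.69-fold and 4.68-fold against control in laser-ablated and bur-drilled bone. Ccl2, a monocyte chemokine, Hmox1, which degrades heme, Cd44, a hyaluronan receptor, and Vegfa, an angiogenic factor, were the 4 that were lower in laser than in bur bone, by 2.74, 2.24, 1.57 and 1.0 log2. The other Cd44 probes gave -0.49 and -0.48 there and were not called, and were called higher in laser than in control bone (1.19 and 0.77), where the brightest was not (-0.16). The other Vegfa probes gave -1.14, called, and -0.68, not called (adjusted p = 0.153), for laser against bur. For bur against control they gave 0.90 and 0.86 and were not called, whereas the brightest was. The one counted as higher in laser than in bur bone was Lif, a cytokine of the interleukin-6 family named after its value was seen. No bur or control array read it well above background, so it passed the filter only through the laser arrays and no fold is given. Its level was 3.54 to 4.31 log2 on laser arrays, 1.78 to 3.36 on bur arrays and 0.86 to 3.08 on control arrays. Without control 1 and control 4, 7 targets were higher for bur against control and 6 for laser against control. Of 12 known EGR target genes, 4 were higher and 2 lower in bur than in control bone. Icam1, an adhesion molecule, rose 4.13-fold and Cdkn1a, the p21 cell cycle inhibitor, 3.87-fold. The 2 counted as lower rest on the brightest of several probes. For Pdgfa, a growth factor chain, that probe gave -1.44 log2, and the others gave 0.83 and 0.80 and were not called (adjusted p = 0.0800 and 0.0826). For Faslg, a death ligand named after its value was seen, it gave -1.52, and the other gave -0.54 and was not called (adjusted p = 0.217). For laser against control 2 were higher and 1 lower, and for laser against bur 1 was higher and 4 were lower.

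**Figure D4:**
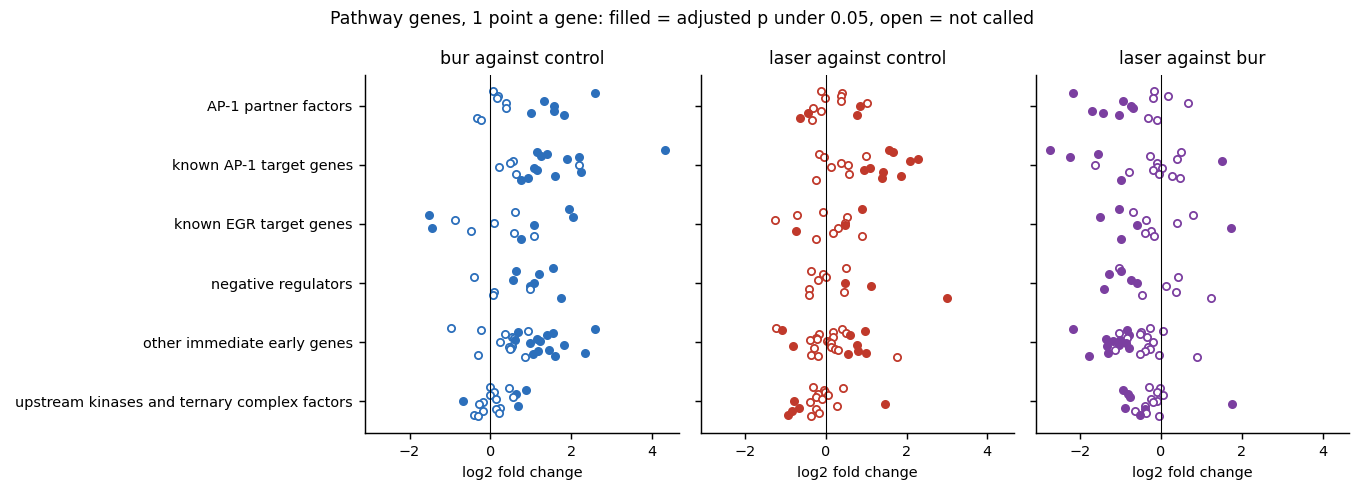
Log2 fold change of each pathway gene (1 point a gene) in the 3 comparisons, filled where the adjusted p was under 0.05. Among other immediate early genes, 14 of 27 were called higher in bur against control and 12 of 27 lower in laser against bur. Of 17 AP-1 targets 9 were called higher in laser against control, among them Lif, which only laser arrays read well above background.

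Markers of monocytes and macrophages were called in the same direction as members in bur against control and in laser against bur, but not in laser against control. Their 6 genes summed to 41200 to 62400 units on laser arrays, 77700 to 103000 on bur arrays and 45300 to 75800 on control arrays. For bur against control 5 of 6 were called higher, for laser against control 4 of 6 were higher, and for laser against bur 3 of 6 were lower. One of these 3 was Lyz2 (-0.88 by its brightest probe), named after its values were seen, of which another probe was called higher for laser against bur (1.94, adjusted p = 6.83e-05). Their part in the results was not tested. Neutrophil markers summed to 94900 to 130000 units on laser arrays, 34400 to 56200 on bur arrays and 49200 to 71400 on control arrays, with 2 of 5 called higher for laser against control and for laser against bur, and 1 of 5 lower for bur against control. The 2 called higher were S100a8 and S100a9, named after their values were seen. The other 3 gave -0.58, -0.45 and -0.37 log2 for laser against control and were not called, the median of the 5 was -0.37 log2, and a second S100a8 probe was called lower (-0.97, adjusted p = 0.0365). Periosteal and fibroblast markers summed to 7660 to 19700 units on laser arrays, 7410 to 17700 on bur arrays and 2570 to 4280 on control arrays, with 4 of 5 called higher than in control bone after each treatment. Osteoblast and osteocyte markers summed to 162000 to 241000 units on laser arrays, 125000 to 195000 on bur arrays and 84900 to 164000 on control arrays, with 4 of 8 called higher for laser against control and 2 of 8 for bur against control. Erythroid markers were called lower than in control bone in both laser-ablated and bur-drilled bone, 4 of 4 each. The part of these lists in the results, that of the AP-1 targets included, was not tested. Neural and glial markers were called lower than in control bone in both laser-ablated and bur-drilled bone, 3 of 6 each. Their summed signal was 11300 units in control 1 and 6220 in control 4, against 597 and 493 in the other control arrays. Without control 1 and control 4, Fos (2.24), Fosl1 (1.60), Junb (1.40) and Jun (0.76) were still called for bur against control, and Jund (-0.60) for laser against control.

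The genes whose levels over the 12 arrays were most like those of the members are given as a description, with Pearson correlations over arrays that share groups, slides and normalization. Fos was most like Anxa4, an annexin (0.982), Pid1 (0.977) and Akr1b8, an aldo-keto reductase (0.977). Fosl1 was most like Apln, the peptide apelin (0.956), and Junb most like P4hb, a protein disulfide isomerase (0.977), and Sod2, the mitochondrial superoxide dismutase (0.976). Jun was most like Clcf1, a cytokine of the interleukin-6 family (0.957), and Jund like Golga2, a Golgi matrix protein (0.959).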

How the data were processed

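Total RNA from 12 calvarial samples, 200 ng each, was labelled with Cy3 and hybridised to single-colour arrays, per the labels' protocols. The deposited scanner files hold spot intensity (Agilent Feature Extraction, release 11.0.1.1 in the submitters' processing notes), with flags for outlier, saturated and well-above-background spots, per the file headers. No spot was saturated. The log2 values of the authors' deposited expression table are quantile normalized according to the title it bears. Its later entries repeat probe names with unrelated values and were not used. The authors' deposited comparison tables give a log2 fold change and a p-value, raw and adjusted, for each entry. Which probes the authors combined into an entry is not given in the sources used here.

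The processed signal was taken to log2, 4259 control spots per array and outlier spots were left out, arrays were quantile normalized and spots of a probe averaged. A probe was kept if at least 4 of 12 arrays read it well above background (27196 of 45598). A gene was represented by its brightest kept probe, and symbols came from RefSeq (GRCr8) through the accession for 21184 probes and from the file for 14713. One limma 3.58.1 fit in R 4.3.3 over 12 arrays gave all 3 comparisons, and probe-level values came from the same fit over all kept probes. The threshold was an adjusted p (Benjamini-Hochberg) under 0.05. The code was checked on simulated arrays with known changes. Array number limits the precision, and no counts stand behind the values.

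Named genes are the 10 members, up to 4 genes of each pathway list with the smallest p in a comparison, and genes most correlated with a member; any other is marked as chosen after its values were seen. The members, lists and tests were chosen with earlier results of these data known. The alternatives were other scaling, background correction and filters, the authors' values, other probes for a gene, a replicate block and arrays left out.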

Additional observations from a re-analysis of the deposited data

How the results depend on the processing

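The numbers 1 to 4 are slide rows, and the labels do not say if they also mark shared animals. Deviations of arrays with the same number correlated at -0.105 to 0.35 over 12 pairs, above 0.1 in 7. These values do not settle if the numbers mark a pairing. The numbers were not taken as one, and a replicate block was fitted as an alternative. With the replicate block 4, 1 and 5 of the 10 genes were called for bur against control, laser against control and laser against bur, as without it. The block changed no other call of these genes, and all genes called numbered 3990, 5934 and 4406, against 3837, 5637 and 4224. Leaving out 1 array at a time gave 4 to 5 (2756 to 4110 genes in all), 1 to 2 (4202 to 5469) and 5 to 6 (3005 to 3985) of the 10 genes. For results whose sign changed, the range was -0.19 to 0.02 log2 for Jund in bur against control, and in laser against control -0.06 to 0.47 for Fosl1 and -0.16 to 0.09 for Jun. Egr2 joined the calls against control in both comparisons without control 2, and Fosb (-2.15) joined those of laser against bur without bur 3.

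For all genes in bur against control the count was 2476 with only the arrays of the 2 groups and 2353 without control 1 and control 4, where fewer arrays enter. For the 10 genes it was 7 in bur against control with the mean of the kept probes and also with the dimmest kept probe, an alternative chosen after seeing the data. All 7 were higher in both, where 2280 and 2056 of 16382 genes were called higher. In laser against control 2 of the 10 were called with normexp (Egr1 added) and 2 with the dimmest probe (Jun and Egr2, without Jund). All genes called there numbered 5835 and 4828. The authors' deposited values hold only 8 of the 10 genes, without Fosb and Egr3. The present fit run on them called 3 of these 8 (Jun and Egr1 added) and 5410 of all 14937 genes. The adjusted p of the authors' own comparison table passes for Jun, Jund and Egr2 and not for Egr1 (0.0521).

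Egr3, which no bur or control array read above background, has no fold and is left out of what follows. Of 471 values recomputed for the other genes, 434 kept direction and call, 17 gained a call, 1 lost it and 19 changed sign. Fos, Fosl1, Jun and Junb stayed called in every alternative that tested them for bur against control and, with Jund, for laser against bur. The call of Jund for laser against control was lost with the mean of its probes (-0.29, adjusted p = 0.214) and with its dimmest probe. Signs changed for bur against control in Fosl2 (-0.06) and Egr2 (-0.21) without control 1 and control 4, and in Jund with the mean of its probes (0.41), its dimmest probe (0.91) or without bur 1 (0.02). For laser against control they changed in Fosl1 without control 4 (-0.06) or without control 1 and control 4 (-0.08), in Jun with the authors' values (0.60), the mean of its probes (0.34), its dimmest probe (0.71) or without control 3 (0.09), and in Jund (0.03) and Egr1 (-0.15) with the dimmest probe. For laser against bur they changed in Egr1 with the mean of its probes (-0.30) or its dimmest probe (-0.79), and in Egr2 with normexp (-0.61), the authors' values (-0.45), the mean of its probes (-0.60) or its dimmest probe (-1.45). Under normexp the other Egr2 probe is the brighter and stands for the gene. For the remaining changes the cause was not tested, beyond the probe or array exchanged.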
